A study of Mus musculus with 6 samples.

Results

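The 5 genes described here encode the keratins of simple, single-layered epithelia: Krt7, Krt8, Krt18, Krt19 and Krt20. They were chosen by gene symbol from the 55401 genes of the deposited tables, and all 5 were found and passed the filter on low counts. Kidney RNA came from mice made diabetic by injection of streptozotocin, a toxin of the insulin-producing beta cells. WT/Sed, with the genotype label WT, and Cdo1KKO/Sed, with the genotype label KO, were represented by 3 libraries each, and both groups received streptozotocin. The design text of the series places the targeted gene, Cdo1 (cysteine dioxygenase), in the renal tubule. The labels give no age, sex, strain, Cre driver or meaning of Sed, nor the number of animals behind a library, and call the libraries of a group biological replicates. The p values below measure the spread between these libraries.

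Keratins are the intermediate filament proteins of epithelial cells. A type I and a type II keratin pair to form each building block of the filament, and single chains are degraded when no partner is available. Krt7 and Krt8 are type II keratins, and Krt18, Krt19 and Krt20 are type I. In kidney, Krt7, Krt8, Krt18 and Krt19 are known from collecting duct and other distal epithelia, and tubule cells raise keratin expression after injury. Krt20 is best known from intestinal epithelium and from the umbrella cells of the urothelium, the lining of the renal pelvis and bladder.

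The libraries held 28145261 to 43872779 counts. Cdo1 stood at 181, 191 and 180.5 counts per 1000000 (CPM) in WT/Sed, compared with 109, 118 and 103 CPM in Cdo1KKO/Sed, so it was lower in every Cdo1KKO/Sed library but still counted there. Of 17194 genes tested with edgeR, 37.4% changed at a Benjamini-Hochberg adjusted p under 0.05, with 18.9% higher and 18.5% lower in Cdo1KKO/Sed. In 50.3% of genes every library of one group lay above every library of the other, with Cdo1KKO/Sed on top in 25.7% and below in 24.5%. Read against these shares, 3 of the 5 keratins rose (Krt20, Krt8 and Krt18), 1 fell (Krt19) and 1 did not pass (Krt7). Positive log2 fold changes mean a higher level in Cdo1KKO/Sed, and each has an approximate SE, and CPM values are scaled by TMM. Kidney tissue holds many cell types, so more cells of a type and more RNA per cell cannot be told apart.

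The order of the 5 transcripts differed between the groups when levels were compared per length, as transcripts per 1000000 (TPM). In WT/Sed, Krt8 was the most abundant at 81.6 ± 4.10 TPM (SD, n = 3). Krt7 at 18.9 ± 0.852 TPM and Krt18 at 18.3 ± 2.02 TPM followed and did not differ beyond their spread. Krt19 at 3.02 ± 0.966 TPM and Krt20 at 0.484 ± 0.164 TPM came last. In Cdo1KKO/Sed, Krt20 led at 406 ± 58.1 TPM, ahead of Krt8 at 157 ± 7.70 TPM. Krt18 at 28.7 ± 3.01 TPM and Krt7 at 22.4 ± 0.805 TPM came next, and Krt19 was lowest at 1.49 ± 0.536 TPM. The least abundant transcript of the family in WT/Sed was thus the most abundant in Cdo1KKO/Sed.

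**Figure D1:**
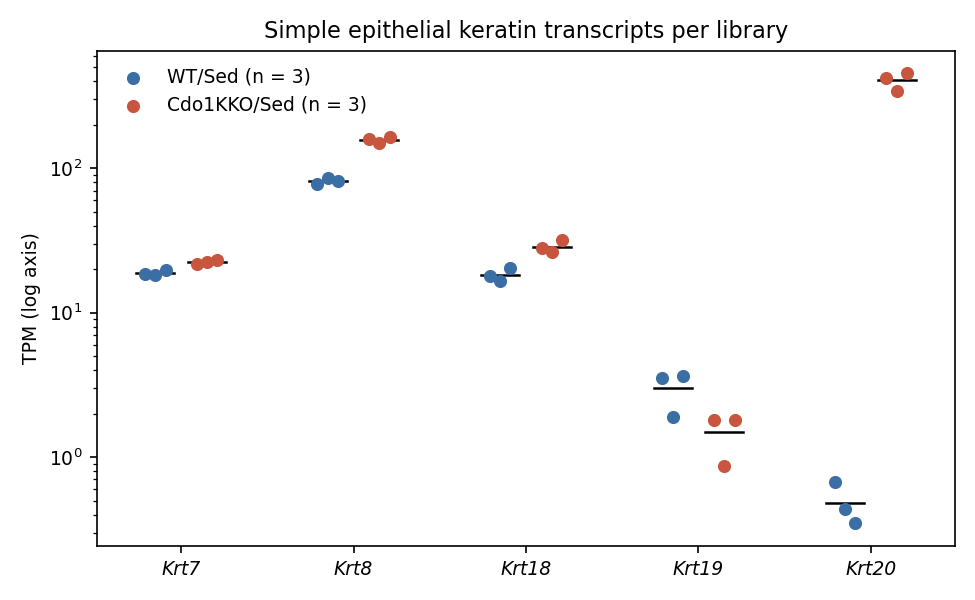
TPM of each keratin in every library on a log axis, with WT/Sed in blue, Cdo1KKO/Sed in red and a black line at each group mean (n = 3). Krt20 moves from the bottom of the plot (0.348 to 0.667 TPM) to the top (342 to 456 TPM), while Krt7 stays between 18.2 and 23.2 TPM.

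Together the 5 transcripts summed to 122 ± 3.71 TPM in WT/Sed, compared with 616 ± 69.3 TPM in Cdo1KKO/Sed. Krt8 made up 66.7 ± 2.72% of that sum in WT/Sed, compared with 25.7 ± 1.70% in Cdo1KKO/Sed, although its own level rose. Krt20 made up 0.398 ± 0.148% in WT/Sed, compared with 65.8 ± 2.15% in Cdo1KKO/Sed. Sorted by type, type II transcripts (Krt7 and Krt8) summed to 100.5 ± 3.92 TPM in WT/Sed, compared with 179.8 ± 7.98 TPM in Cdo1KKO/Sed. Type I transcripts (Krt18, Krt19 and Krt20) summed to 21.8 ± 2.80 TPM in WT/Sed, compared with 436 ± 61.3 TPM in Cdo1KKO/Sed. Type II transcripts exceeded type I transcripts in each WT/Sed library, with ratios of 4.36, 5.50 and 4.13, and were fewer in each Cdo1KKO/Sed library, with ratios of 0.402, 0.464 and 0.382. Without Krt20 the ratio was 4.77 ± 0.758 in WT/Sed, compared with 5.99 ± 0.413 in Cdo1KKO/Sed. The excess of type I transcripts in Cdo1KKO/Sed therefore came from Krt20. These sums are a description of transcripts and say nothing of protein.

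**Figure D2:**
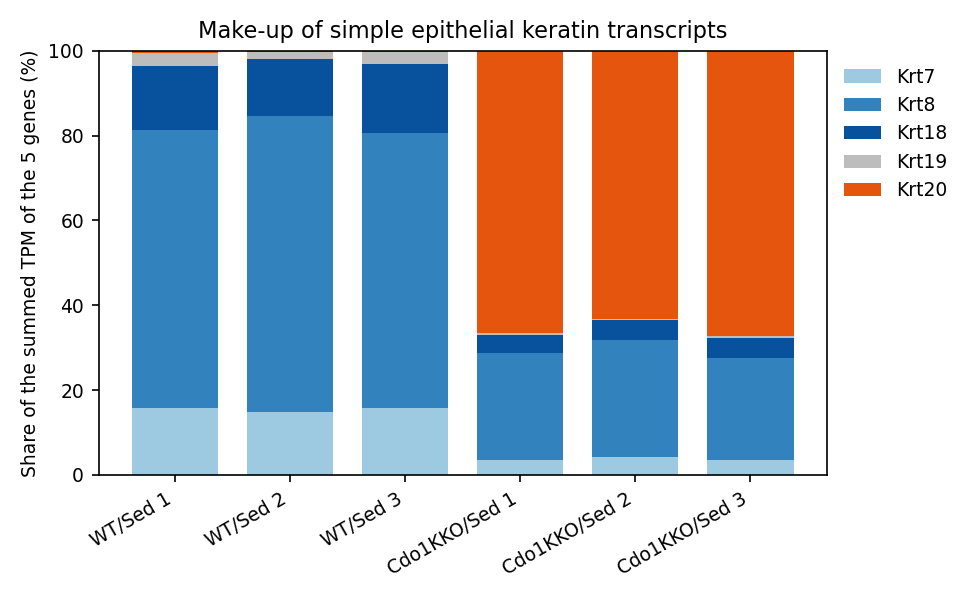
Share of each keratin in the summed TPM of the 5 genes, one stacked bar per library (y axis in percent). Krt8 fills 64.7% to 69.8% of each WT/Sed bar, and Krt20 fills 63.3% to 67.3% of each Cdo1KKO/Sed bar.

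Krt20 (ENSMUSG00000035775.2) gave the largest difference among the 5. It stood at 0.565, 0.375 and 0.292 CPM in the WT/Sed libraries, compared with 298, 247 and 322 CPM in the Cdo1KKO/Sed libraries. Every Cdo1KKO/Sed library was high and every WT/Sed library close to nothing, with 44 counts in all of WT/Sed against 34319 in Cdo1KKO/Sed. The log2 fold change was 9.44 ± 0.18 (edgeR adjusted p = 8.45e-09), a 695-fold difference and the 11th largest fitted increase among the 17194 genes. Leaving out single libraries moved the log2 fold change between 9.20 and 9.78. Krt20 has 8 exons and occupies bases 99428403 to 99438150 of chromosome 11 on the minus strand (build GRCm38, positions from GENCODE M21), inside the cluster of type I keratin genes. Its neighbours in the cluster did not share its level. Krt12, the cornea keratin, ends 6143 bases away and had 0 counts in WT/Sed, compared with 12, 8 and 9 counts in Cdo1KKO/Sed, too few to be tested. Krt23 lies 39823 bases away on the other side, at 1.19 ± 0.456 CPM in WT/Sed, compared with 1.55 ± 0.0826 CPM in Cdo1KKO/Sed (adjusted p = 0.374).

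Krt8 and Krt18, the usual type II and type I partners of simple epithelia, both rose. Krt8 (ENSMUSG00000049382.10) stood at 66.9, 75.002 and 69.2 CPM in WT/Sed, compared with 115, 109 and 118 CPM in Cdo1KKO/Sed. The groups did not overlap, and the lowest Cdo1KKO/Sed library lay well above the highest WT/Sed library. Its log2 fold change was 0.70 ± 0.06 (edgeR adjusted p = 5.39e-06), or 1.62-fold. Krt18 (ENSMUSG00000023043.7) stood at 11.3, 10.6 and 12.8 CPM in WT/Sed, compared with 14.7, 14.1 and 16.9 CPM in Cdo1KKO/Sed. These groups did not overlap either, but the gap between them was narrow. Its log2 fold change was 0.39 ± 0.11 (edgeR adjusted p = 0.0149), or 1.31-fold. Krt18 no longer passed when WT/Sed replicate 1 was left out (log2 fold change 0.37, adjusted p = 0.0650) or Cdo1KKO/Sed replicate 3 (0.30, adjusted p = 0.0891), and its log2 fold change was 0.62 with limma on log2(TPM + 1) (adjusted p = 0.0020).

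The ratio of Krt8 to Krt18, per length, was 4.34, 5.17 and 3.95 in WT/Sed, compared with 5.73, 5.68 and 5.11 in Cdo1KKO/Sed. WT/Sed replicate 2 overlapped with the Cdo1KKO/Sed libraries. An exact 2-sided permutation test of the log2 ratio gave p = 0.2 (difference 0.30), where 3 libraries against 3 cannot go below 0.1, so a shift in the balance of the pair was not detectable with these libraries. Among 4 such ratios compared, those of Krt8 to Krt7, Krt20 to Krt8 and Krt19 to Krt8 separated the groups completely (exact permutation p = 0.1 each, 0.133 adjusted over the 4). Krt8 was 4.32 ± 0.338 times as abundant as Krt7 in WT/Sed, compared with 7.02 ± 0.367 times in Cdo1KKO/Sed. Krt8 and Krt18 sit side by side on chromosome 15, 23697 bases apart: Krt8 on the minus strand from 101996698 to 102004482 with 9 exons, and Krt18 on the plus strand from 102028180 to 102032027 with 7 exons. The processed pseudogene Krt8-ps on chromosome 7 shares an identical run of 299 bases with the Krt8 transcript, so some reads could be counted at either. Krt8-ps had 0 to 10 counts per library against 2001 to 5394 for Krt8.

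The promoters of the keratins that rose are shown to let their sequences be compared. RefSeq promoter windows (GRCm38.p6, 250 bases before to 50 after the start) matched 4 of the 5 genes. Printed are the bases before the RefSeq start that lie in no GENCODE M21 exon, 5′ to 3′ on the strand of the gene, and capitals mark a TATA box.
Krt20, minus strand, chr11:99438154-99438403: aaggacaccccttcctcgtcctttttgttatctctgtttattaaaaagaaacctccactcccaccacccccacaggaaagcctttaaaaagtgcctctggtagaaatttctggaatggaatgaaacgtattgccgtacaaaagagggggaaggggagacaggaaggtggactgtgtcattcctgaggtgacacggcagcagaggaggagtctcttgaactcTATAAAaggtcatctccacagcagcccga
Krt8, minus strand, chr15:102004483-102004592: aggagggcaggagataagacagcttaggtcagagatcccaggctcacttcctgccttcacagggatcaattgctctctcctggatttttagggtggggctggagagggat
Krt18, plus strand, chr15:102027966-102028179: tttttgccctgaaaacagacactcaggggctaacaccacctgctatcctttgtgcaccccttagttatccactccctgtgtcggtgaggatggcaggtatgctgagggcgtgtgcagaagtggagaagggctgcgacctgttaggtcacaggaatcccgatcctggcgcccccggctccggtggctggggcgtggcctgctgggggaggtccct

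The windows were searched on both strands for TATAAA, the TATA box, for CCAAT, the CCAAT box, for GGGCGG, the GC box, for TGANTCA, the AP-1 motif, and for TTCNNNGAA, the STAT motif. Krt20 held 1 TATA box, beginning 29 bases before the RefSeq start. Krt8 held overlapping TATA matches on both strands that begin 3 and 1 bases before its RefSeq start, outside the printed stretch. They begin inside a GENCODE M21 exon of Krt8, so their place is unlike that of the Krt20 match. Of the 250 bases before the RefSeq start, 140 lie in such exons for Krt8, 162 for Krt7, 36 for Krt18 and 0 for Krt20. Krt7, which did not pass the test, held 4 GC boxes and no TATA box, and Krt18 held none of these motifs. The letters of the CCAAT box, AP-1 and STAT motifs did not occur in the 4 windows. Over all 32851 RefSeq windows of this length, 13.6% held the TATA box, 37.4% CCAAT, 35.7% the GC box, 7.81% the AP-1 and 8.30% the STAT motif. No motif of the 5 was thus found in all 3 keratins that rose.

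Krt7 was the keratin whose level did not pass the test. Krt7 (ENSMUSG00000023039.17), a type II keratin of ducts and urothelium, stood at 57.9, 57.4 and 60.9 CPM in WT/Sed, compared with 56.0, 59.2 and 60.1 CPM in Cdo1KKO/Sed, with overlapping groups. The log2 fold change was -0.01 ± 0.06 (edgeR adjusted p = 0.930). The scaling decides this result. In the deposited TPM values Krt7 stood at 18.7, 18.2 and 19.9 in WT/Sed, compared with 21.6, 22.4 and 23.2 in Cdo1KKO/Sed, without overlap, and its log2 fold change was 0.23 (limma on log2(TPM + 1), adjusted p = 0.0138). With library size as the only scaling it was 0.16 (edgeR adjusted p = 0.0346). These settings moved the median of all genes tested from 0.01 to 0.19 and 0.18, so relative to the median gene Krt7 differed little under each. Krt7 lies on the plus strand of chromosome 15 from 101411043 to 101430313 with 9 exons. The antisense gene Gm671 overlaps its start and had 36 to 54 counts per library against 1531 to 2755 for Krt7, and reads of the overlap cannot be assigned to a strand from these counts.

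Krt19 was the keratin that fell. Krt19 (ENSMUSG00000020911.14), the smallest type I keratin, stood at 2.88, 1.57 and 2.92 CPM in WT/Sed, compared with 1.22, 0.604 and 1.22 CPM in Cdo1KKO/Sed. The groups did not overlap, but WT/Sed replicate 2 lay close to the upper Cdo1KKO/Sed libraries. The log2 fold change was -1.29 ± 0.33 (edgeR adjusted p = 0.0109), a level 2.44-fold lower. Krt19 no longer passed when WT/Sed replicate 1 was left out (-1.16, adjusted p = 0.0575) or with limma on log2(TPM + 0.1) (-0.98, adjusted p = 0.0503), and its log2 fold change was -0.68 on log2(TPM + 1) (adjusted p = 0.0440). Krt19, with 6 exons, occupies bases 100140810 to 100148665 of the minus strand, 702659 bases from Krt20 in the same cluster. At 24 to 120 counts per library it is the least counted of the 5 in Cdo1KKO/Sed.

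Urothelium markers, like some other lists, varied between libraries in a similar order to Krt19. The 12 markers summed to 9.02, 2.66 and 14.2 CPM in WT/Sed and to 6.77, 3.90 and 5.995 CPM in Cdo1KKO/Sed, with overlapping groups. Replicate 2 was the lowest library of each group for both Krt19 and the marker sum. This order was not particular to urothelium. Thin limb markers summed to 78.0, 48.1 and 90.9 CPM in WT/Sed and to 79.9, 78.8 and 87.9 CPM in Cdo1KKO/Sed. Replicate 2 was also lowest in both groups for Krt18 and for the sums of thick ascending limb and injured tubule genes. Of the 7 markers tested, 0 rose and 0 fell with edgeR and with DESeq2, and 0 had an unadjusted edgeR p under 0.05. The 4 with the smallest p were Psca (-2.26 ± 1.31, adjusted p = 0.253), Upk1b (-0.62 ± 0.55, adjusted p = 0.412), Krt15 (-0.69 ± 0.71, adjusted p = 0.491) and the basal cell factor Trp63 (-0.10 ± 0.29, adjusted p = 0.829). Psca, a surface protein of urothelium, had 108, 0 and 214 counts in WT/Sed, compared with 30, 10 and 26 in Cdo1KKO/Sed, and without WT/Sed replicate 2 it fell (-2.81, adjusted p = 1.17e-04), as 1 of 2 markers that then passed. The umbrella cell gene Upk3a had 14, 0 and 46 counts in WT/Sed, compared with 2, 4 and 7 in Cdo1KKO/Sed, and Upk2 had 8, 2 and 22 against 2, 0 and 12. Upk1a, another uroplakin, had 44, 14 and 50 counts against 40, 41 and 35 (0.03 ± 0.36, edgeR adjusted p = 0.956). Upk1a, Upk2 and Upk3a were named after their values were seen. The part of urothelium in the differences of Krt19 and Krt20 was not tested.

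**Figure D3:**
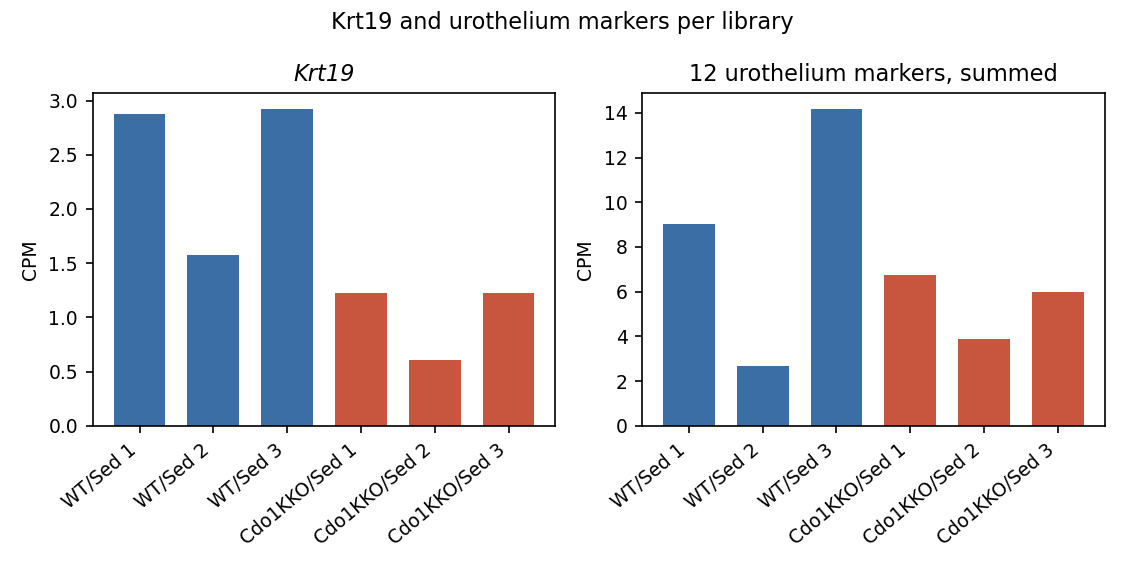
CPM of Krt19 (left) and summed CPM of the 12 urothelium markers (right) in each library, with WT/Sed in blue and Cdo1KKO/Sed in red. Krt19 is lower in all 3 Cdo1KKO/Sed libraries, the marker sums of the groups overlap (2.66 to 14.2 against 3.90 to 6.77 CPM), and replicate 2 is the lowest of its group in both panels.

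Few other keratin genes were counted in these kidneys. Of 49 further keratin genes, 27 had 0 counts in all 6 libraries, 15 had counts too low to be tested and 7 were tested. Of these 7, 2 rose (Krt6b and Krt80) and 0 fell, against 18.9% risen among all genes, and their median log2 fold change was 0.11, against 0.01 for all genes tested. Krt6b, a type II keratin that skin epithelium raises on wounding, had 0 counts in WT/Sed, compared with 21, 18 and 49 counts in Cdo1KKO/Sed. Its 0.721 ± 0.315 CPM was 25.7-fold a floor of 3 counts over all WT/Sed libraries (edgeR adjusted p = 4.89e-04). If both reads of a pair were counted, this floor is too low and the fold is not a lower bound. Krt80 went from 4.37 ± 0.866 to 6.06 ± 0.459 CPM (0.48 ± 0.17, adjusted p = 0.0456), and its call was lost with upper-quartile scaling (adjusted p = 0.0507) and without any 1 library other than WT/Sed replicate 2 (adjusted p 0.0976 to 0.161). Krt10, of suprabasal skin, stood at 6.89 ± 1.33 CPM in WT/Sed, compared with 6.27 ± 0.446 CPM in Cdo1KKO/Sed (adjusted p = 0.564). Krt5 and Krt14, the basal keratins of stratified epithelia, had at most 18 and 8 counts in any library.

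**Figure D4:**
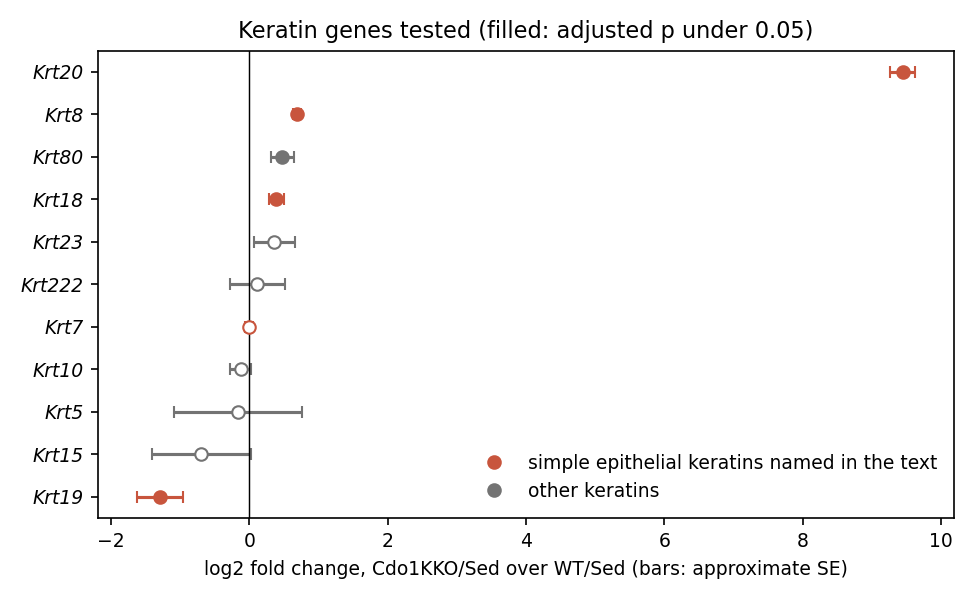
Log2 fold change of the keratin genes tested, with the 5 simple epithelial keratins in red, other keratins in grey, bars of 1 approximate SE and filled points where the adjusted p was under 0.05. Krt20 stands at 9.44 and all others shown between -1.29 and 0.70; Krt6b, with 0 counts in WT/Sed, is left out.

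Genes that anchor keratin filaments mostly rose alongside Krt8. Desmosomes join keratin filaments between cells, hemidesmosomes tie them to the basement membrane, and plakins link the filaments to both. Of 17 such genes tested, 10 rose and 1 fell, with a median of 0.34. Over all genes 18.9% rose and 18.5% fell, with a median of 0.01, and the gene lists that follow are to be read against the same values. The laminin receptor subunit Itga6 rose from 95.9 ± 6.33 to 187 ± 4.35 CPM (0.96 ± 0.06, edgeR adjusted p = 5.02e-07). The plakins plectin (Plec, 0.78 ± 0.06), dystonin (Dst, 0.50 ± 0.09) and periplakin (Ppl, 0.65 ± 0.13) rose as well. Other plakins did not. Envoplakin (Evpl) was lower without overlap but just missed the threshold (-0.23 ± 0.08, edgeR adjusted p = 0.05002). Epiplakin (Eppk1) did not pass either (0.21 ± 0.32, edgeR adjusted p = 0.651). Plakophilin 4 (Pkp4) fell by 0.25 on the log2 scale (edgeR adjusted p = 0.00571), but not when scaled by library size alone (adjusted p = 0.257) or in TPM, where its log2 fold change was 0.00 (adjusted p = 0.988). Of 9 other intermediate filament genes tested, 3 rose and 0 fell, a count of 1 without Cdo1KKO/Sed replicate 1, of 5 without WT/Sed replicate 2 or by library size alone and of 6 in TPM. The 3 were lamin A/C (Lmna, 0.52 ± 0.07), desmin (Des, 0.96 ± 0.29) and neurofilament M (Nefm, 1.57 ± 0.46). The call was lost for Des without Cdo1KKO/Sed replicate 1 or 2 (adjusted p = 0.101 and 0.0888) and for Nefm without Cdo1KKO/Sed replicate 1 or 3 (0.0785 and 0.0847). Vimentin (Vim), the filament of mesenchymal cells, stood at 18.7 ± 5.45 CPM in WT/Sed, compared with 24.9 ± 0.810 CPM in Cdo1KKO/Sed (edgeR adjusted p = 0.129).

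Surface genes of simple epithelia mostly rose too. Of 14 tested, 10 rose and 2 fell, with a median of 0.49. The tight junction claudin Cldn4 rose from 8.80 ± 0.998 to 31.2 ± 3.17 CPM (1.82 ± 0.11, edgeR adjusted p = 3.67e-07), Cldn7 by 0.88 ± 0.11, E-cadherin (Cdh1) by 0.65 ± 0.05 and the protease St14 by 0.61 ± 0.06. Kidney cadherin Cdh16 fell by 0.40 and the protease inhibitor Spint2 by 0.24 on the log2 scale. Spint2 did not pass when scaled by library size alone (adjusted p = 0.237), and its log2 fold change was 0.01 in TPM (adjusted p = 0.822). Summed over the list, levels were 1552.6 to 1683 CPM in WT/Sed, compared with 1687 to 1714 CPM in Cdo1KKO/Sed.

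Transcription factors of epithelia and of the AP-1 and ETS families were examined because several are known regulators of simple epithelial keratins. Of 18 epithelial factors tested, 8 rose and 1 fell, with a median of 0.14. Sox9 went from 0.594 ± 0.129 to 41.4 ± 0.949 CPM (6.12 ± 0.12), and Klf6 (2.50 ± 0.22), Sox4 (1.39 ± 0.09) and Elf3 (0.77 ± 0.09) rose by less. Esrp2, an epithelial splicing regulator, fell by 0.29 on the log2 scale (edgeR adjusted p = 0.00566), but did not pass when scaled by library size alone (adjusted p = 0.186) or in TPM (adjusted p = 0.682). Of 14 AP-1 and ETS genes tested, 11 rose and 0 fell, with a median of 1.18, unchanged with Fosl1 at its bound. The number fallen stayed at 0 under 11 of the 17 alternative settings and was 1 under the others. Ets2, which activates Krt18 in other epithelia, rose from 47.5 ± 2.95 to 108.6 ± 3.42 CPM (1.19 ± 0.06, edgeR adjusted p = 1.13e-07). Fosl2, Junb and Maff rose by 1.05 ± 0.08, 1.39 ± 0.11 and 1.41 ± 0.12. Fosl1, named after its values were seen, had 0 counts in WT/Sed, compared with 56, 39 and 61 in Cdo1KKO/Sed.

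Of 20 other genes of injured tubules, 18 rose and 0 fell, with a median of 2.00. Among them were the cytokine Il34 (2.40 ± 0.09), the TWEAK receptor Tnfrsf12a (2.08 ± 0.08), the actin-binding peptide Tmsb10 (2.60 ± 0.10) and clusterin (Clu, 1.38 ± 0.08). Krt20 lay far above the middle of the injury genes, while Krt8 and Krt18 lay below it. Of the injury genes themselves, Lcn2 (8.12 ± 0.59, from 3.96 to 1169 CPM) also lay far above that middle. So did Havcr1 (5.29 ± 0.56, from 10.2 to 414 CPM). This list and the others were chosen with results of these data known, and their counts are not independent evidence of a direction.

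Cell type marker lists are read here against the 18.9% of all genes that rose and the 18.5% that fell. Collecting duct principal cells, where Krt7, Krt8, Krt18 and Krt19 are known, had 3 of 9 markers lower and 0 higher: the water channels Aqp2 (-1.45 ± 0.06), Aqp3 (-1.08 ± 0.08) and Aqp4 (-0.60 ± 0.09). The sodium channel subunit Scnn1b of the same cells stood at 35.6 ± 4.52 CPM in WT/Sed, compared with 39.4 ± 2.15 CPM in Cdo1KKO/Sed (edgeR adjusted p = 0.215). It passed when scaled by library size alone (0.32, adjusted p = 0.0167), in TPM (0.40, adjusted p = 0.00759) and without WT/Sed replicate 2 (0.25, adjusted p = 0.0136). All 12 proximal tubule markers fell (10 with the TPM values), among them the factor Hnf4a (-0.76 ± 0.06) and the anion transporter Slc22a6 (-0.72 ± 0.07). In the thick ascending limb 6 of 7 rose, including Umod (0.75 ± 0.11) and Egf (0.51 ± 0.05), and the claudin Cldn16 fell (-0.53 ± 0.12, edgeR adjusted p = 0.00657). Cldn16 did not pass with limma on log2(TPM + 1) (-0.26, adjusted p = 0.0597) or on log2(TPM + 0.1) (-0.28, adjusted p = 0.0603). In the distal convoluted tubule 4 of 6 rose. Of intercalated cell markers 4 of 9 rose and 1 fell, of thin limb markers 1 of 5 rose, of podocyte markers 2 of 7 fell and of mesothelium markers 1 of 2 fell. The podocyte count was 1 without WT/Sed replicate 1 or without Cdo1KKO/Sed replicate 1 or 2, and 0 without Cdo1KKO/Sed replicate 3 or in TPM. Among 8 macrophage markers 6 rose (3 when WT/Sed replicate 1 or any single Cdo1KKO/Sed library was left out) and 1 fell, and 5 of 6 neutrophil markers rose. Summed levels were 606 to 613 CPM in WT/Sed against 343 to 354 CPM in Cdo1KKO/Sed for principal cells. Within that sum, Aqp2 went from 293 ± 24.8 to 107 ± 0.841 CPM and Aqp3 from 112 ± 12.5 to 52.9 ± 4.02 CPM. The 6 markers other than Aqp2, Aqp3 and Aqp4 did not pass with edgeR and TMM. Among them were Hsd11b2 (70.9 to 67.0 CPM, adjusted p = 0.627), Scnn1g (39.4 to 37.5 CPM, 0.535) and Fxyd4 (16.9 to 18.0 CPM, 0.515). Summed levels were 58.8 to 92.3 against 112 to 119 CPM for macrophages and 1.65 to 3.14 against 14.8 to 18.2 CPM for neutrophils. The mesothelium marker that fell was Gpm6a, from 184 ± 16.1 to 121 ± 1.68 CPM. No other marker of that list was near its level: Upk3b stood at 0.580 ± 0.245 CPM in WT/Sed, and Calb2 and Muc16 had 0 counts in all libraries. The part of such shifts in the keratin differences was not tested.

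The genes whose profile over the 6 libraries was closest to each keratin were sought among 14214 genes of at least 1 CPM in a group. Likeness was the root mean square difference of centred log2(CPM + 0.5) values. The 0.5 CPM added sets the lower end of a profile where a gene has few or no counts in WT/Sed. The nearest to Krt20 were the acute-phase genes Saa2 (0.13) and Orm2 (0.17) and the interferon-induced Gbp2 (0.38). Saa2 had 0 counts in WT/Sed and the WT/Sed level of Orm2 was 0.016 CPM, so both lie near Krt20 on this scale although their fitted fold changes were larger (12.94 for Orm2 on the log2 scale, against 9.44 for Krt20). Krt8 was nearest to Ptpn12 (0.03), Dlgap4 (0.03) and Utrn (0.04), and Krt18 to Zfp597, Znfx1 and Syt11 (0.04 each). Krt7 was nearest to Dbi, Osbpl2 and B4galt3 (0.02 each). Krt19 was nearest to Slc7a12 (0.08), Dnah3 and Gm10681 (0.15 each).

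**Figure D5:**
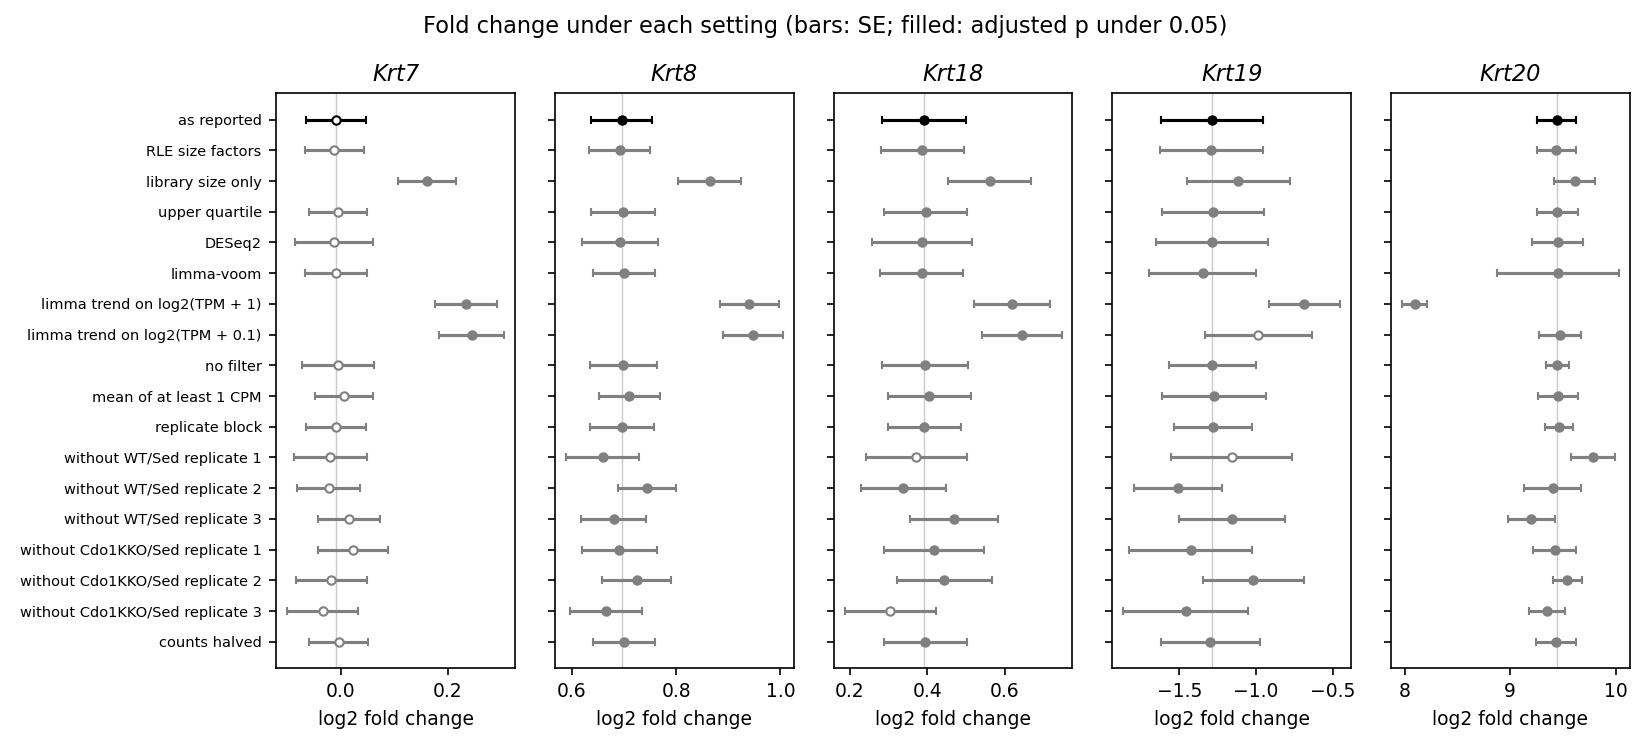
Log2 fold change of each keratin under every setting, one panel per gene with its own x axis, bars of 1 SE and filled points where the adjusted p was under 0.05. Krt8 and Krt20 are filled throughout, Krt18 and Krt19 each have 2 open points, and Krt7 is filled with TPM values and when scaled by library size alone (0.16 to 0.24).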

How the data were processed

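Poly(A) RNA of 6 kidney libraries, 3 WT/Sed and 3 Cdo1KKO/Sed, was sequenced. The authors deposited counts per gene, which are whole numbers without normalization, and TPM per gene, which sum to 1000000 in each library. Per the submitters' processing notes, fastp 0.23.4 and the builds GRCm38 and mm10 were used; the aligner, the counting tool and whether strand was used are not stated there. Of counts from 1 to 20, 71.6% to 74.5% were even in each library, as when both reads of a pair are counted, so limits set by counts understate counting error.

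In R 4.3.3, edgeR 4.0.16 was run with filterByExpr (minimum count 10), TMM and the robust quasi-likelihood F test on genotype alone, and p values were adjusted by Benjamini-Hochberg over 17194 genes. The approximate SE is the log2 fold change divided by the square root of F. Alternatives were RLE, upper-quartile or no scaling, DESeq2 1.42.0, limma 3.58.1 (voom, or log2 TPM plus 1 or 0.1), other filters, the replicate block, leaving out each library and, chosen after seeing the data, halved counts. All pairs of libraries differed by more than the counting noise of single reads (chi-square per degree of freedom at least 3.27). Within Cdo1KKO/Sed this value was 3.27 to 6.73 and within WT/Sed 10.6 to 32.9, so the spread differed between the groups. Counting both reads of a pair would raise the noise level, so the lowest values lie closer to it. Plots used matplotlib 3.10.9 and Python 3.11.15.

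The 5 genes and all lists (keratins, filament linkers, other intermediate filaments, epithelial surface, epithelial factors, AP-1 and ETS factors, injured tubule, and markers of 11 cell types) were chosen with earlier results of these data known. The rule for named genes took the 5 keratins, other keratins of at least 1 CPM (0.5 CPM if called), up to 4 genes per list with the smallest p, and the 3 closest profiles per keratin. Pkp4, Cdh16, Spint2, Esrp2, Fosl1, Vim, Krt5, Krt14, Krt12, Upk1a, Upk2 and Upk3a were named outside it, after their values were seen. So were Lcn2, Havcr1, Hsd11b2, Scnn1g, Fxyd4, Calb2, Muc16, Evpl and Eppk1.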

Additional observations from a re-analysis of the deposited data

How the results depend on the processing

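Krt8 and Krt20 kept direction and call under all 17 alternatives, with log2 fold changes of 0.66 to 0.95 and 8.10 to 9.78. Krt18 kept direction under all and its call under 15, and Krt19 likewise; leaving out single libraries gave 0.30 to 0.47 for Krt18 (adjusted p up to 0.0891) and -1.51 to -1.02 for Krt19 (up to 0.0575), and limma on log2(TPM + 0.1) gave -0.98 for Krt19. Krt7 turned positive with library size only (0.16), limma on log2(TPM + 1) (0.23) and log2(TPM + 0.1) (0.24), a filter of 1 CPM (0.0067), and single libraries left out gave -0.034 to 0.023, including 0.016 without WT/Sed replicate 3 and 0.023 without Cdo1KKO/Sed replicate 1. For all genes, 5513 rose and 1685 fell with library size only, 6784 and 1246 with log2(TPM + 1), and 6660 and 1224 with log2(TPM + 0.1), whose median of all genes was 0.25. Risen other keratins numbered 1 with upper quartile, a filter of 1 CPM or halved counts, and 1 to 2 with single libraries left out; Krt6b was not tested with the filter of 1 CPM or with halved counts. The Krt8 to Krt18 difference ran from 0.22 to 0.41 with single libraries left out, at p from 0.1 to 0.3.

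Of 48 other named genes, 775 of 809 values kept direction and call, 17 lost and 5 gained it, and 12 turned: Krt10 with library size only (0.042), log2(TPM + 1) (0.12), log2(TPM + 0.1) (0.13) and without WT/Sed replicate 2 (0.031), single libraries left out giving -0.24 to 0.031; Trp63 with library size only (0.072), log2(TPM + 1) (0.038), log2(TPM + 0.1) (0.12) and without Cdo1KKO/Sed replicate 3 (0.023), single libraries left out giving -0.26 to 0.023; Pkp4 (0.0014 in both) and Spint2 (0.012 in both) with the TPM values. Of 578 list counts, 524 stayed within 1.5 times. Apart from the settings' own construction, the cause of these changes was not tested. Over all genes tested, same-numbered libraries did not deviate together (correlations -0.017 to 0.022). A pairing that touches a smaller set of genes was not tested. With the replicate block, log2 fold changes were -0.0082, 0.70, 0.39, -1.28 and 9.46 for Krt7, Krt8, Krt18, Krt19 and Krt20, with every call kept. Krt19 rests on 24 to 120 counts per library and the WT/Sed level of Krt20 on 10 to 22.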

Other observations

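Low counts of other keratin genes were found in both groups for some genes and in a single group for others. Krt23 and Krt222, type I relatives in the Krt20 region of chromosome 11, were counted in every library (22 to 75 and 19 to 71 counts), and neither passed the edgeR test (adjusted p = 0.374 and 0.853). Krt15 had 24, 5 and 36 counts in WT/Sed, compared with 18, 2 and 22 in Cdo1KKO/Sed, so that replicate 2 was again the lowest library of each group, as it was for Krt19. Replicate 2 was also lowest in both groups for Krt5, with 13, 0 and 18 counts in WT/Sed, compared with 17, 2 and 9 in Cdo1KKO/Sed. These counts are not scaled, and WT/Sed replicate 2 was the library with the fewest counts (28145261). In CPM replicate 2 was still the lowest of each group for Krt15 and Krt5. Krt18 and the summed thin limb markers shared this order, so it was not particular to these keratins. Krt4, of internal stratified epithelia, was counted in WT/Sed replicate 1 (10 counts) and in no other library. Krt79 had 0 counts in WT/Sed, compared with 2, 6 and 2 in Cdo1KKO/Sed. These genes were singled out after their values were seen.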
